A study of Schizosaccharomyces pombe with 9 samples.

Results

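The 10 genes described here encode factors that finish messenger RNAs and end their transcription in the fission yeast Schizosaccharomyces pombe: dis2, ppn1, swd22, ssu72, pla1, ctf1, pcf11, rhn1, seb1 and dhp1. They were taken from a list of identifiers that states no rule on measured values, but it was chosen with earlier results of these data known. Each was found among the 6986 feature identifiers of the count table. All 10 passed the filter on low counts, which left 6147 genes for testing. The series compared polyadenylated RNA of an aps1∆ strain (aps1 deletion), an asp1-D333A strain and a wild-type strain (WT), with 3 libraries each, 9 in all, from vegetative cells in log phase in YES, a rich medium, at 30 °C. Each genotype was a single laboratory strain, and the 3 libraries of a strain are described only as replicate experiments, so p-values measure the spread between these libraries, which may be partly technical. Aps1 breaks down inositol pyrophosphates, signalling molecules with chains of phosphate on an inositol ring, and Asp1 makes them with the kinase domain that the D333A allele changes. The title of the series links these molecules to phosphate balance through the processing of RNA ends and termination.

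At the end of a gene, the nascent transcript is cut at the poly(A) site by the cleavage and polyadenylation factor (CPF) together with an RNA-binding cleavage factor, and a poly(A) tail is added. The exposed downstream RNA is then degraded towards RNA polymerase II, which is released. Several of the proteins read or remove phosphates on the carboxy-terminal tail of the polymerase, and in fission yeast they influence whether non-coding transcription upstream of phosphate genes ends early or runs into those genes.

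Total counts were between 18244492 and 22999732 per library. The aps1 gene itself kept, in its deletion strain, 5.60% to 8.37% of the WT mean, while the asp1-D333A allele, a change of 1 residue, cannot be checked from counts. The series' readout gene pho1, a cell-surface acid phosphatase, averaged 7964 CPM in the aps1 deletion, 117 CPM in asp1-D333A and 2436 CPM in WT. CPM is the usual unit of counts relative to the size of a library, which was scaled here with TMM on the assumption that most genes do not change. Of the genes called, the share that was higher was 40.7% in the aps1 deletion against WT, 49.6% in asp1-D333A against WT and 49.3% in the aps1 deletion against asp1-D333A. It became 29.0%, 67.3% and 31.5% with upper-quartile scaling, and 24.8%, 63.7% and 33.0% with library totals alone, and the median over all genes in asp1-D333A against WT was 0.18 and 0.14 on the log2 scale in place of 0.01. Changes are therefore relative to the main scaling. The asp1-D333A replicate 3 stood apart. Its median absolute deviation from the strain mean was 0.12 on the log2 scale over all genes, where the other 8 libraries had 0.04 to 0.09, and results that rest on it are given with and without it.

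Of the 10 factor mRNAs, 2 rose and none fell in the aps1 deletion against WT. In asp1-D333A 1 rose and 6 fell, led by swd22 at 0.447 of the WT level. Between the mutants 8 were higher and 1 lower in the aps1 deletion. Calls were made in the edgeR quasi-likelihood fit wherever the p-value, adjusted by Benjamini and Hochberg's method across every gene tested, was below 0.05. The same rule called 16.6% of all genes in the aps1 deletion against WT, 6.73% higher and 9.83% lower. It called 61.1% in asp1-D333A against WT, 30.3% higher and 30.8% lower, and 68.8% between the mutants, 33.9% higher and 34.9% lower in the aps1 deletion. Counted in either direction, the 7 of 10 factors called in asp1-D333A and the 9 of 10 between the mutants are thus close to or somewhat above what genes in general showed. By direction the calls were less even than those of all genes. In asp1-D333A 6 of 10 were lower, against 30.8% of all genes, and between the mutants 8 of 10 were higher, against 33.9%. Protein-coding genes alone were called lower in asp1-D333A in 35.2% of cases and higher in 27.4%. Between the mutants they were called higher in the aps1 deletion in 40% of cases and lower in 29.3%.

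**Figure D1:**
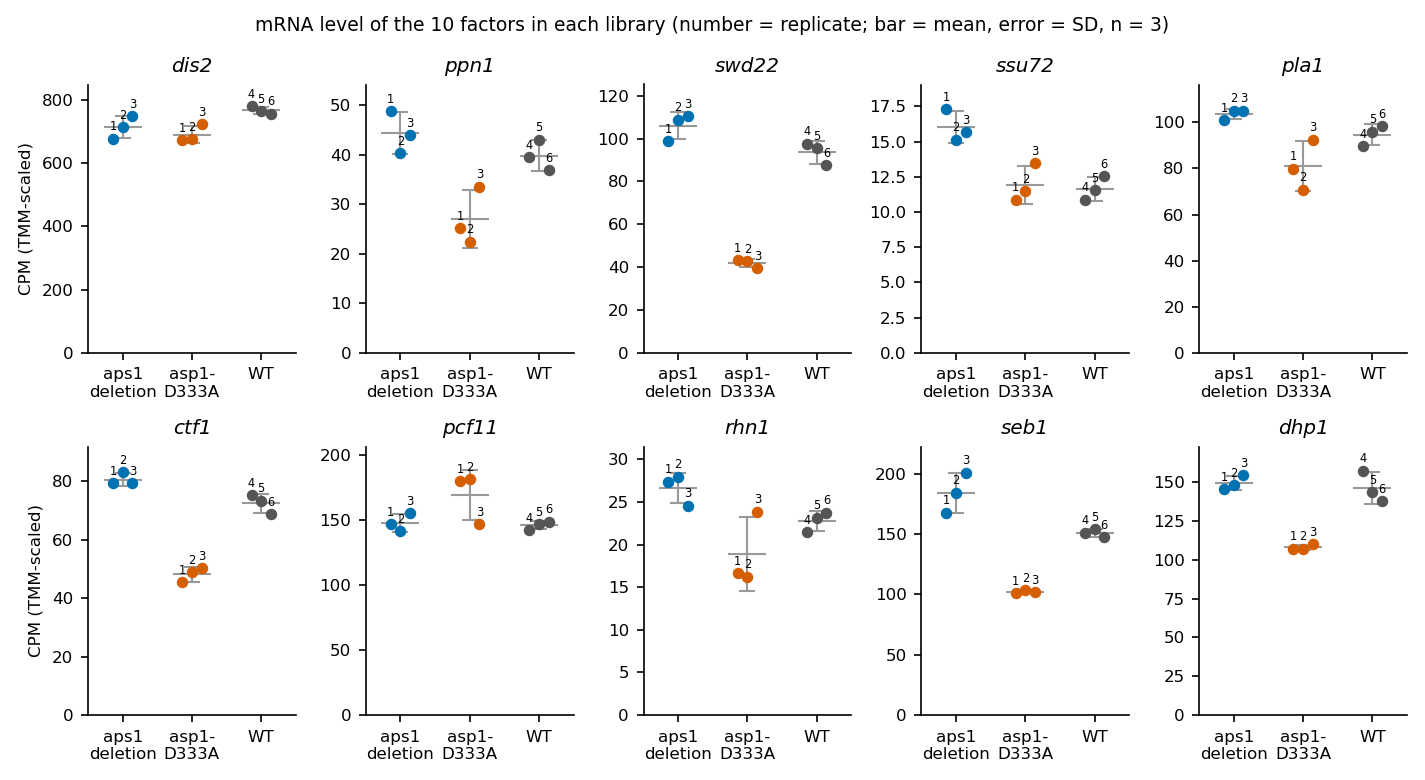
Level of each factor mRNA in CPM (vertical axes from 0, each panel with its own scale) in the 3 libraries of the aps1 deletion, asp1-D333A and WT; points are libraries with their replicate numbers, and bars with error bars are means ± SD (n = 3). The swd22 points of asp1-D333A lie between 39.6 and 43.2 CPM, below all others, and replicate 3 of asp1-D333A departs from replicates 1 and 2 for ppn1, rhn1, pla1 and pcf11.

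Dis2, Ppn1 and Swd22 form a phosphatase module of CPF. Dis2 is a catalytic subunit of protein phosphatase 1, which also acts in cell division, Ppn1 is its regulatory partner, and Swd22 is a WD-repeat protein. The swd22 mRNA (SPAC824.04, chromosome I) had the largest change of the 10. Its level was 98.7, 109 and 110.4 CPM in the aps1 deletion, 43.2, 42.7 and 39.6 CPM in asp1-D333A, and 97.6, 95.6 and 87.4 CPM in WT. The asp1-D333A values lie far below the other strains, and the aps1 deletion values all lie just above those of WT. In asp1-D333A the mRNA fell by 1.16 on the log2 scale (SE 0.08, adjusted p 7.7e-08 by edgeR), a change lower than that of all but 1.8% of genes. It was called under all 15 alternatives, between -1.21 and -0.99. In the aps1 deletion the log2 fold change was 0.18 (SE 0.075) and the adjusted p 0.12 by edgeR. That difference passed the threshold in 2 of 15 alternatives, the fit on the 6 libraries compared and the one without asp1-D333A replicate 3.

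The ppn1 mRNA (SPCC74.02c, chromosome III) was the second of the module to fall in asp1-D333A. It stood at 48.8, 40.4 and 44.0 CPM in the aps1 deletion, 25.1, 22.5 and 33.6 CPM in asp1-D333A, and 39.6, 43.1 and 36.9 CPM in WT. All asp1-D333A values were below WT, with replicate 3 closest to it, while the aps1 deletion overlapped WT. The log2 fold change in asp1-D333A was -0.56 (SE 0.13, adjusted p 0.0027 by edgeR), and -0.75 (SE 0.10) without replicate 3. For the aps1 deletion it was 0.16, with a 95% interval of -0.13 to 0.44 that is not adjusted for the number of genes. The annotated span of ppn1 overlaps 794 bases of sly1 on the other strand, which fell in asp1-D333A by 0.71 on the log2 scale.

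The dis2 mRNA (SPBC776.02c, chromosome II) was by far the most abundant of the 10. It had 677, 714 and 748 CPM in the aps1 deletion, 673, 674 and 723 CPM in asp1-D333A, and 779, 764 and 756 CPM in WT. Every mutant library was below every WT library, but the differences were small. They were -0.10 on the log2 scale in the aps1 deletion (95% interval -0.25 to 0.04) and -0.15 in asp1-D333A (95% interval -0.29 to -0.01). Neither passed the test in edgeR (adjusted p 0.31 and 0.062). The second was called with DESeq2 (adjusted p 0.038), on leaving out aps1 deletion replicate 1 (0.035) or asp1-D333A replicate 3 (0.014), and with upper-quartile scaling it turned to 0.02.

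Within the module the balance of mRNAs therefore differed between strains. Per kilobase of exon, dis2 exceeded swd22 by 6.35 ± 0.145 times in the aps1 deletion, 15.6 ± 1.40 times in asp1-D333A and 7.74 ± 0.357 times in WT (mean ± SD, n = 3 each). The ratio was 14.7, 14.9 and 17.2 in the asp1-D333A libraries, all above the highest WT value of 8.15, and these ratios do not depend on the scaling between libraries. The ratio of swd22 to ppn1 was 5.48 ± 0.794 in the aps1 deletion, 3.64 ± 0.854 in asp1-D333A and 5.35 ± 0.283 in WT. In the asp1-D333A libraries it was 3.91, 4.32 and 2.68, with replicate 3 the lowest and all below the lowest WT value of 5.05. The lowest value in the aps1 deletion was 4.60.

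The other CPF members of the list were ssu72 and pla1. Ssu72 is a phosphatase that acts on the polymerase tail, and its mRNA (SPAC3G9.04, chromosome I) had the lowest CPM of the 10, with 195 to 341 counts per library. Its level was 17.3, 15.2 and 15.7 CPM in the aps1 deletion, 10.9, 11.5 and 13.5 CPM in asp1-D333A, and 10.9, 11.5 and 12.5 CPM in WT. The aps1 deletion libraries were all above the others, while asp1-D333A and WT overlapped. This was the largest change of the 10 in the aps1 deletion, 0.46 on the log2 scale (SE 0.12, adjusted p 0.016 by edgeR). The adjusted p by edgeR rose to 0.054 without WT replicate 4, without WT replicate 5 or without aps1 deletion replicate 1, and to 0.059 with library totals alone, and ranged from 0.004 to 0.059 over the 15 alternatives. In asp1-D333A the log2 fold change was 0.04, with a 95% interval of -0.21 to 0.29, and it was -0.06 without replicate 3.

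Pla1 is the poly(A) polymerase that makes the tails of nuclear transcripts. Its mRNA (SPBC646.04, chromosome II) was at 101, 105 and 105 CPM in the aps1 deletion, 79.9, 70.8 and 92.5 CPM in asp1-D333A, and 89.6, 95.9 and 98.4 CPM in WT. Replicate 3 of asp1-D333A lay within the WT range and the other 2 below it. The fall in asp1-D333A of -0.22 (SE 0.09) was called with an adjusted p of 0.040 by edgeR, and lost the call in 9 of 15 alternatives. Among these were upper-quartile scaling (-0.05), library totals alone (-0.09) and the fits without asp1-D333A replicate 1 (-0.21) or 2 (-0.135). Others were the fits without WT replicate 5 (-0.19), WT replicate 6 (-0.20) and aps1 deletion replicate 2 or 3 (-0.225 each), and the fit on the 6 libraries alone. Without replicate 3 of asp1-D333A it was -0.33 (SE 0.07, adjusted p 0.00063 by edgeR). The aps1 deletion had a log2 fold change of 0.13 (adjusted p 0.34 by edgeR).

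**Figure D2:**
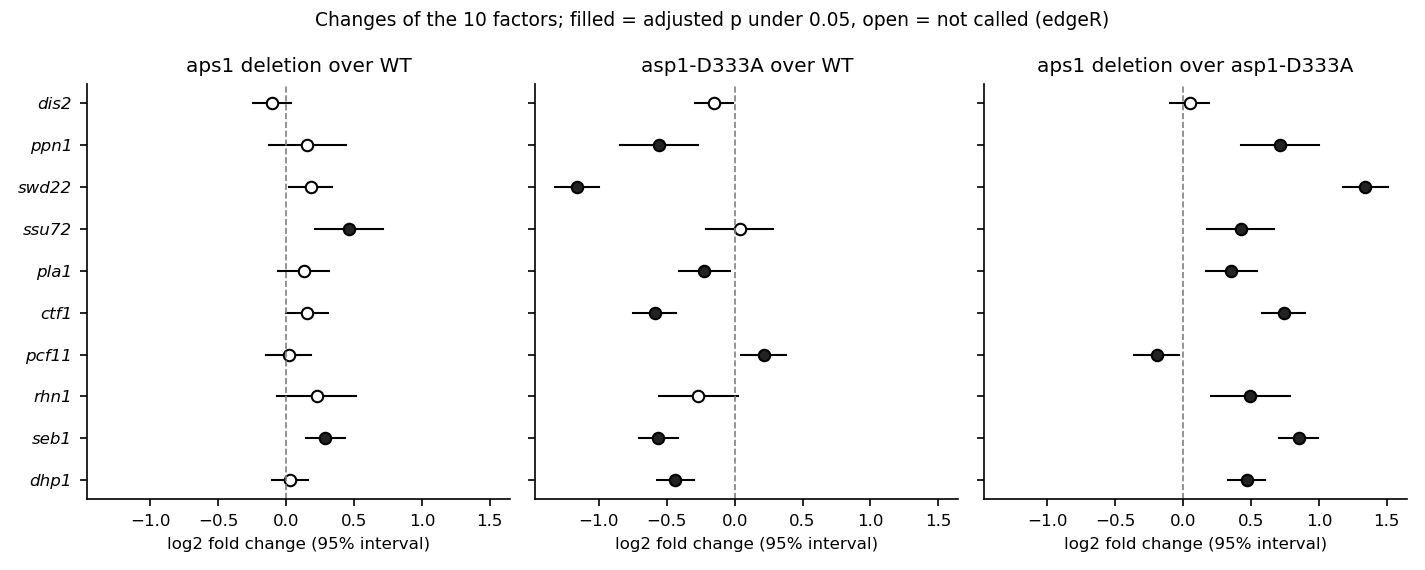
Log2 fold change (horizontal axes) of the 10 factor mRNAs, in rows, for the aps1 deletion over WT, asp1-D333A over WT and the aps1 deletion over asp1-D333A; lines are 95% intervals, filled points passed an adjusted p of 0.05 in edgeR and open points did not. The filled points number 2, 7 and 9 from left to right, and swd22 lies farthest from 0 in the middle and right panels.

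The cleavage factor that binds the RNA around the cut site was represented by ctf1 and pcf11, and their mRNAs moved differently in asp1-D333A. Ctf1 is the counterpart of the human cleavage stimulation factor subunit CstF64. Its mRNA (SPBC3B9.11c, chromosome II) stood at 79.3, 83.2 and 79.3 CPM in the aps1 deletion, 45.4, 48.9 and 50.4 CPM in asp1-D333A, and 75.3, 73.4 and 68.8 CPM in WT. The 3 strains did not overlap. The fall in asp1-D333A was -0.59 (SE 0.07, adjusted p 1.7e-05 by edgeR) and held under all 15 alternatives, while the log2 fold change of 0.15 in the aps1 deletion had an adjusted p of 0.17 by edgeR.

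Pcf11 carries a domain that binds the polymerase tail and takes part in dismantling the elongating complex. Its mRNA (SPAC4G9.04c, chromosome I) was at 147, 142 and 156 CPM in the aps1 deletion, 180.1, 182 and 147 CPM in asp1-D333A, and 143, 147 and 149 CPM in WT. Replicates 1 and 2 of asp1-D333A and replicate 3 of the aps1 deletion were above all WT values, and the other mutant libraries were not. It was the only one of the 10 called higher in asp1-D333A, at 0.21 on the log2 scale (SE 0.08, adjusted p 0.028 by edgeR). Without replicate 3 it was 0.305 (SE 0.055, adjusted p 0.00016 by edgeR). The call was lost in 6 of 15 alternatives, namely without asp1-D333A replicate 1 or 2, without any one of the 3 WT libraries, and in the fit on the 6 libraries alone, where log2 fold changes lay between 0.16 and 0.24. The 2 genes that overlap pcf11 on the other strand, adk1 and rnh201, had log2 fold changes of -0.20 and -0.11 in asp1-D333A.

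Rhn1 and Seb1 carry the same kind of tail-binding domain as Pcf11. Seb1 also binds nascent RNA and in fission yeast helps select poly(A) sites and end transcription. The seb1 mRNA (SPAC222.09, chromosome I) was the only one of the 10 called against WT in both mutants. It was at 168, 184 and 201 CPM in the aps1 deletion, 101, 104 and 102 CPM in asp1-D333A, and 151, 154 and 148 CPM in WT, with no overlap between strains. It rose in the aps1 deletion by 0.29 (SE 0.07, adjusted p 0.010 by edgeR) and fell in asp1-D333A by 0.56 on the log2 scale (SE 0.07, adjusted p 1.0e-05 by edgeR). Both comparisons use the same WT libraries. The fall held under all 15 alternatives. The rise was lost in 1, the fit without aps1 deletion replicate 3 (log2 fold change 0.22, adjusted p 0.055 by edgeR).

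The rhn1 mRNA (SPBC337.03, chromosome II) was less abundant. Its level was 27.4, 28.0 and 24.6 CPM in the aps1 deletion, 16.6, 16.2 and 23.9 CPM in asp1-D333A, and 21.5, 23.2 and 23.8 CPM in WT. Replicate 3 of asp1-D333A was just above all WT values and replicates 1 and 2 were below them. The log2 fold change in asp1-D333A was -0.27 (SE 0.14) and did not pass the test (adjusted p 0.10 by edgeR), but without replicate 3 it was -0.475 (SE 0.10, adjusted p 0.0008 by edgeR). All libraries of the aps1 deletion exceeded WT, and the difference was 0.23 on the log2 scale (SE 0.13, adjusted p 0.28 by edgeR).

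Dhp1 is the exonuclease that degrades the downstream RNA after the cut, the counterpart of Rat1 in budding yeast and XRN2 in humans. Its mRNA (SPAC26A3.12c, chromosome I) was at 146, 148 and 155 CPM in the aps1 deletion, 107, 107 and 110.0 CPM in asp1-D333A, and 158, 144 and 138 CPM in WT. The asp1-D333A values were all below the others, and the aps1 deletion lay within the WT range. The mRNA fell in asp1-D333A by 0.44 on the log2 scale (SE 0.06, adjusted p 4.9e-05 by edgeR) and under all 15 alternatives. Its log2 fold change in the aps1 deletion was 0.03, with a 95% interval of -0.10 to 0.16. Of the genes opposite dhp1, cnt6 fell in asp1-D333A (-0.63) and SPAC26A3.11, which shares 1226 bases with it, rose (0.27).

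**Figure D3:**
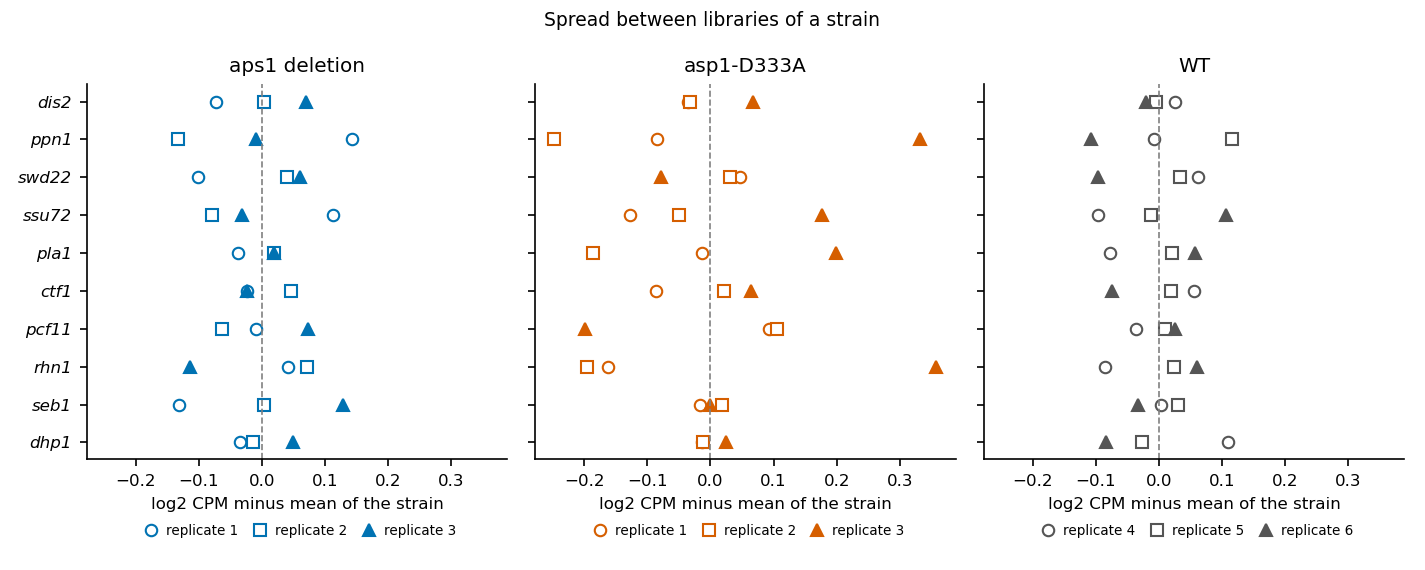
Log2 CPM of each library minus the mean of its strain (horizontal axes) for the 10 factor mRNAs, in rows, with a panel for each strain and a symbol for each replicate. In asp1-D333A, replicate 3 lies to the right for ppn1, ssu72, pla1 and rhn1 and to the left for pcf11, while the 3 libraries nearly coincide for seb1 and dhp1.

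The spread between asp1-D333A libraries thus differed from factor to factor. The coefficient of variation within asp1-D333A was 22.8% for rhn1, 21.5% for ppn1, 13.4% for pla1 and 11.5% for pcf11, but 1.21% for seb1 and 1.49% for dhp1. In WT it was at most 7.79% and in the aps1 deletion at most 9.58% for any of the 10. Without asp1-D333A replicate 3, 9 of the 10 factor mRNAs were called against WT, 1 higher and 8 lower, all but ssu72. In the same fit 64.0% of all genes were called, and 49.0% of the called genes were higher. What sets replicate 3 apart was not tested.

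Taking counts over the 10, the median log2 fold change was 0.15 for the aps1 deletion against WT and -0.35 for asp1-D333A against WT, where all genes had medians of -0.01 and 0.01. The median absolute change of the 10 was 0.15 and 0.35, against 0.14 and 0.35 for all genes, so the size of the changes was that of genes in general. The ranges of the strains did not overlap for 7 factors in the aps1 deletion against WT, where this held for 39.2% of all genes. They did not overlap for 6 in asp1-D333A against WT and 8 between the mutants, where it held for 65.7% and 70.5% of all genes.

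The mutants were also compared directly, without the WT means. The aps1 deletion exceeded asp1-D333A by a log2 fold change of 1.34 for swd22 (SE 0.08), 0.85 for seb1 (SE 0.07), 0.74 for ctf1 (SE 0.07) and 0.71 for ppn1 (SE 0.13). For rhn1, dhp1, ssu72 and pla1 the difference was between 0.35 and 0.49. The adjusted p-values of these 8 by edgeR lay between 1.1e-08 and 0.0052. The pcf11 mRNA was lower in the aps1 deletion, at -0.20 on the log2 scale (SE 0.08, adjusted p 0.037 by edgeR), and lost the call in 8 of 16 alternatives, among them DESeq2 (adjusted p 0.064), the replicate block (-0.18, adjusted p 0.12) and the fits without WT replicate 6, aps1 deletion replicate 1 or 2, or asp1-D333A replicate 1 or 2. In the fit without asp1-D333A replicate 3, pcf11 was at -0.29 (SE 0.055, adjusted p 0.00022 by edgeR). In that fit ppn1 was at 0.90, rhn1 at 0.70, ssu72 at 0.52 and pla1 at 0.46, while swd22 was at 1.305 and seb1 at 0.85. The dis2 mRNA did not differ detectably in the main fit (0.05, 95% interval -0.10 to 0.19). With upper-quartile scaling or library totals alone, 5 factors were called higher and 2 lower in the aps1 deletion. There rhn1, ssu72 and pla1 lost the call, and dis2 was called lower at -0.17 and -0.15.

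**Figure D4:**
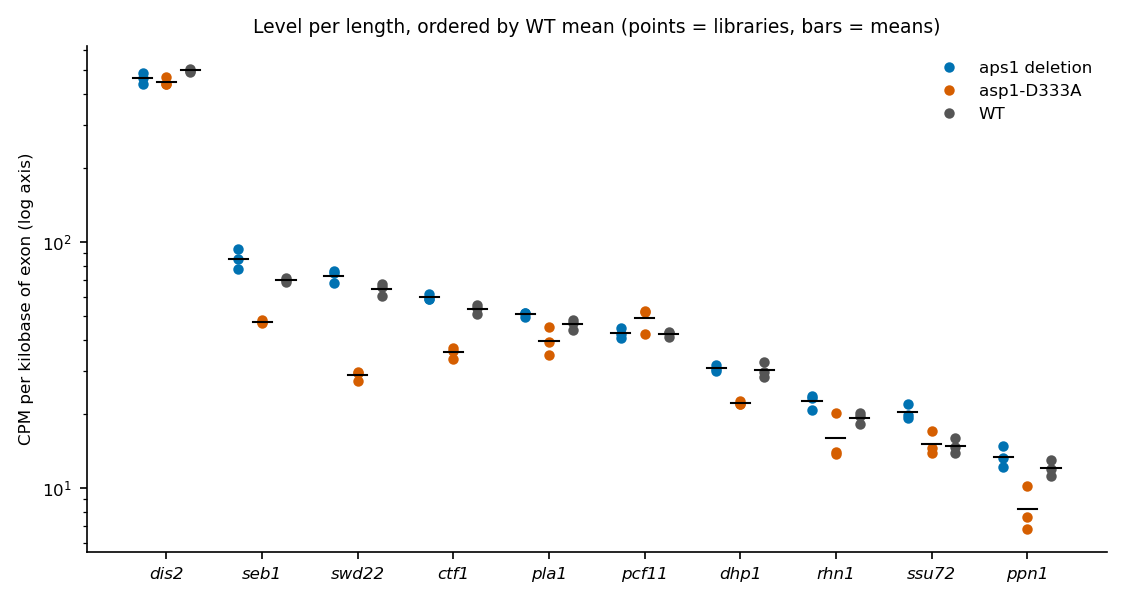
Level per length in CPM per kilobase of annotated exon (log axis) for the 10 factor mRNAs, ordered from left to right by their WT mean; points are libraries, coloured by strain, and short bars are means. The dis2 mRNA stands above the rest in all strains, and swd22, at 64.5 in WT, is at 28.8 in asp1-D333A.

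Levels of different genes were compared per kilobase of exon, with exon lengths from the RefSeq annotation of assembly ASM294v3. In WT the order of mean levels was dis2 (498), seb1 (70.2), swd22 (64.5), ctf1 (53.5), pla1 (46.4), pcf11 (42.3), dhp1 (30.1), rhn1 (19.3), ssu72 (14.8) and ppn1 (12.1), in CPM per kilobase. The values of neighbours in this order did not overlap. The median protein-coding gene was at 40.2 CPM per kilobase in WT, so the list spans genes from the 15.0th percentile (ppn1) to the 93.9th (dis2). The partners of a common module were thus unequal at the mRNA level, with dis2 41.3 times as high as ppn1 in WT.

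In the aps1 deletion the order was the same, from dis2 at 464 to ppn1 at 13.5 CPM per kilobase, and only rhn1 (22.6) and ssu72 (20.4) overlapped. In asp1-D333A swd22 was sixth, and pcf11 (49.0) came second beside seb1 (47.5), with which it overlapped. That overlap came from replicate 3, where pcf11 was at 42.5, against 52.0 and 52.4 in replicates 1 and 2. The seb1 libraries were at 47.0, 48.1 and 47.5. Pairs that overlapped in asp1-D333A were also pcf11 and pla1, again through replicate 3, pla1 and ctf1, and rhn1 and ssu72. The ratio of pcf11 to seb1 was 0.501 ± 0.0378 in the aps1 deletion, 1.03 ± 0.118 in asp1-D333A and 0.602 ± 0.0218 in WT (mean ± SD, n = 3 each). It was 1.11, 1.09 and 0.895 in the asp1-D333A libraries, and every one of them exceeded every WT library. Annotated exon lengths include much non-coding sequence for some of the genes, with 3462 bases for pcf11 of which 1917 are coding. By coding length swd22 came above seb1 and pcf11 above ctf1 in WT, while dis2 stayed first and ppn1 last in all strains. In asp1-D333A pcf11 was then at 88.5 and seb1 at 54.9, with no overlap, so their near equality depends on the length used.

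The rest of the pathway was described with a list of 15 genes, all of which matched the table and were tested: 9 other subunits of the cleavage and polyadenylation machinery, din1, sen1, dbl8, and the poly(A)-binding proteins pab2, nab2 and pabp. In asp1-D333A 11 of the 15 fell, 1 rose and 3 did not pass the test, and their median log2 fold change was -0.35. Of all genes, 30.8% were called lower and 30.3% higher in this comparison, and of protein-coding genes 35.2% were called lower. Lower calls numbered 6 with upper-quartile scaling and 7 with library totals alone. The falls included pta1, the symplekin-type scaffold (-0.57, SE 0.09), cft1, a large scaffold subunit (-0.46, SE 0.08), and pab2, the nuclear poly(A)-binding protein (-0.45, SE 0.06), and the edgeR adjusted p of these was 8.0e-05, 0.00023 and 2.3e-05. The largest was that of dbl8, a Sen1-type helicase (-0.60, SE 0.10), with a mean of 65.2 CPM in asp1-D333A against 98.6 CPM in WT. The partner of Dhp1, din1, fell by 0.35 on the log2 scale (SE 0.09, adjusted p 0.0035 by edgeR), a change of the size seen for dhp1.

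The single rise in asp1-D333A was that of ysh1, the endonuclease subunit that makes the cut (0.25, SE 0.09, adjusted p 0.025 by edgeR). No gene of the list was called higher there in the fit on the 6 libraries alone, without WT replicate 4 or without asp1-D333A replicate 3. The genes pfs2, yth1 and rna14 had log2 fold changes of -0.24, -0.14 and 0.14 that did not pass the test. In the aps1 deletion 1 of the 15 was called, pabp, the general poly(A)-binding protein, at 0.30 (SE 0.09, adjusted p 0.040 by edgeR), with pfs2 next at 0.31 (adjusted p 0.052 by edgeR). No gene of the list was called higher in the aps1 deletion with upper-quartile scaling or library totals alone, nor without WT replicate 4, 5 or 6 or aps1 deletion replicate 2 or 3, and 1 was called lower with library totals alone. Between the mutants 11 of the 15 were higher in the aps1 deletion and none was lower, where 33.9% of all genes were called higher and 34.9% lower. Of protein-coding genes, 40% were called higher and 29.3% lower in this comparison. With upper-quartile scaling or library totals alone 9 of the 15 were higher and 2 lower. Of all genes called in those fits, 31.5% and 33.0% were higher.

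**Figure D5:**
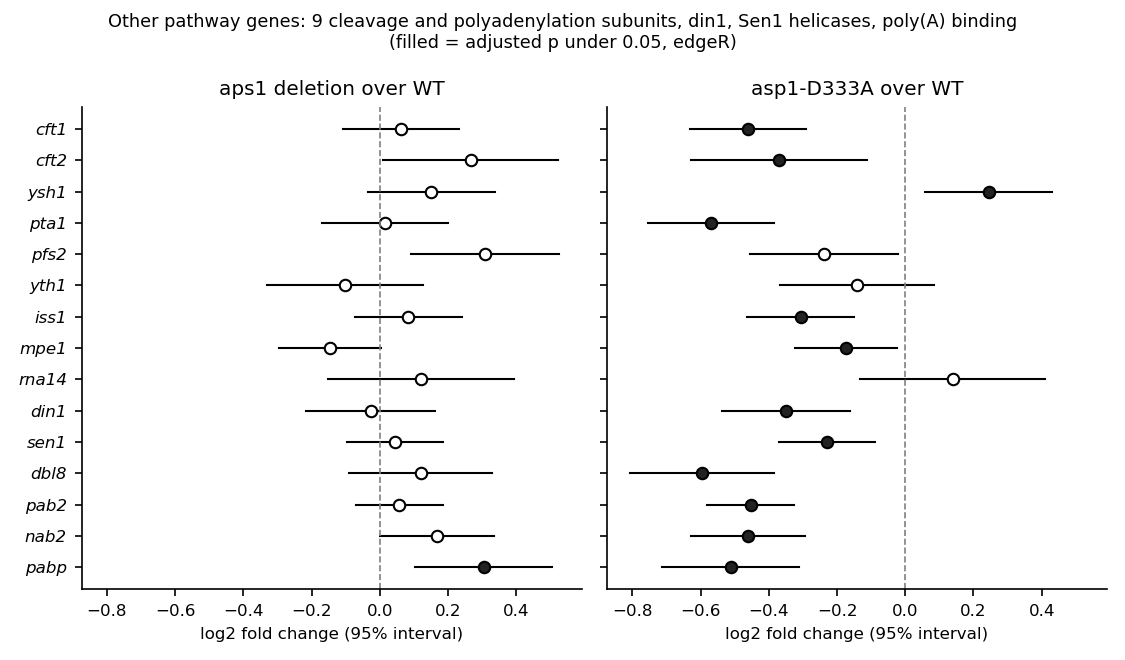
Log2 fold change (horizontal axes) of 15 other pathway genes, in rows, for the aps1 deletion over WT and asp1-D333A over WT; lines are 95% intervals, and filled points passed an adjusted p of 0.05 in edgeR. In asp1-D333A 11 filled points lie left of 0 and 1, ysh1, lies right of it.

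Features annotated on the opposite strand of the factors were examined because reads of overlapping genes can be hard to assign. Other annotated features that overlap a factor are absent from the count table and could not be examined. They number 4 for dhp1, 3 for dis2, 2 for seb1 and 1 each for ppn1, ssu72, rhn1 and pcf11. SPNCRNA.755, a non-coding RNA, spans all 1450 bases of swd22. It had 18, 7 and 9 counts in the aps1 deletion, 75, 53 and 66 counts in asp1-D333A, and 25, 19 and 17 counts in WT, which was 0.357% to 0.925%, 5.12% to 7.91% and 1.01% to 1.43% of the swd22 count. Such shares mean that reads of the 2 strands were not added together, although the strand setting of the counting is not given in the sources used here. In asp1-D333A the antisense feature rose, at 1.33 on the log2 scale (SE 0.31, adjusted p 0.0021 by edgeR) where swd22 fell. The same feature was at -0.84 in the aps1 deletion (adjusted p 0.14 by edgeR).

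The non-coding features opposite rhn1 and pla1 also rose in asp1-D333A. SPNCRNA.1406, which shares 570 bases with rhn1, rose by 0.95 (SE 0.33, adjusted p 0.022 by edgeR), and SPNCRNA.1398, which shares 8 bases with pla1, by 0.86 (SE 0.14, adjusted p 0.00019 by edgeR). Of all 1069 long non-coding features tested, 42.5% were called higher in asp1-D333A, so these 3 rises are of a kind seen in many such features. The protein-coding gene erg9, which shares 45 bases with pla1 on the other strand, fell in asp1-D333A (-0.44, SE 0.07, adjusted p 0.00014 by edgeR). Whether antisense RNA has a part in the level of any factor mRNA was not tested.

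The genes whose pattern over the 9 libraries was most like that of the most changed factor were named by Pearson's correlation of log2 CPM among 4605 other protein-coding genes with a mean of at least 10 CPM. For ssu72, the most changed factor in the aps1 deletion, they were end3 (0.972), jmj4 (0.948) and ppk3 (0.945), and 1 gene had a correlation above 0.95. For swd22, the most changed in asp1-D333A, they were SPAC27E2.03c (0.999), cip2 (0.997) and dri1 (0.997), and 720 genes were above 0.95. The 9 values fall into 3 strains, and a gene that differs mainly between strains has a high correlation with any other such gene. The mRNAs of SPAC27E2.03c, cip2 and dri1 fell in asp1-D333A by 0.72, 0.75 and 0.83 on the log2 scale.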

How the data were processed

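Polyadenylated RNA of 9 libraries was sequenced as read pairs from libraries of a stranded kit, per the labels' protocols. The authors deposited raw counts per feature in a single table with 1 column per library. HISAT2 2.1.0, SAMtools, HTSeq 0.10.0, DESeq2 and the build ASM294v2 are named in the submitters' processing notes. The handling of multiply matching reads is not given in the sources used here. Of 6986 identifiers, 6846 (98.0%) matched the RefSeq annotation of assembly ASM294v3, used for names, lengths, strands and overlaps only, since its build differs. No sequences or coordinates are given for that reason. Counts of 1 repeated identifier were summed.

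Genes were kept by filterByExpr (minimum count 10; 839 removed). edgeR 4.0.16 in R 4.3.3 was used with TMM scaling, all 9 libraries in a group means model and robust quasi-likelihood dispersions; the common biological coefficient of variation was 0.0917. P-values were adjusted by Benjamini-Hochberg over 6147 genes. The SE is the log2 fold change over the square root of F, and 95% intervals use the fit's degrees of freedom. Log2 CPM used a prior count of 2. The procedure was also run on simulated counts in which few genes changed, and only in the aps1 deletion. That setting does not cover a strain with as many changes as asp1-D333A. Alternatives were 3 other scalings, no filter, DESeq2 1.42.0, the 6 libraries of a comparison alone, leaving out each library, and, between the mutants, a replicate block.

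The 10 genes, the list of 15 and the alternatives were chosen with earlier results of these data known. Named beyond the 10 were called or most changed genes of the 15, listed features overlapping a factor, and the 3 genes most correlated with the most changed factor in each mutant. Features flanking a factor were added after their values were seen.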

Additional observations from a re-analysis of the deposited data

How the results depend on the processing

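Of 460 combinations of a factor, a comparison and an alternative, 409 kept both direction and side of the threshold. Of the rest, 34 lost a call and 6 gained one without a change of sign, and 11 changed sign. Among the 11, dis2 between the mutants also gained a call in 2. The falls of swd22, ctf1, seb1, dhp1 and ppn1 in asp1-D333A held under all 15 alternatives. In the aps1 deletion against WT, pcf11 was at -0.026 with upper-quartile scaling and -0.039 with library totals (-0.018 to 0.050 without 1 library), and dhp1 at -0.013 and -0.027 (-0.011 to 0.087 without 1 library). In asp1-D333A, dis2 was at 0.019 with upper-quartile scaling and ssu72 at -0.059 to 0.099 without 1 library. Between the mutants, dis2 was at -0.17 with upper-quartile scaling and -0.15 with library totals, both called lower (adjusted p 0.023 and 0.027 by edgeR). The number of factors called in the aps1 deletion was 1 with library totals and 1 to 3 without 1 library. Genes called in that comparison ranged from 539 to 1668 without 1 library: 539 or 569 without aps1 deletion replicate 2 or 3, 608 or 629 without WT replicate 5 or 6, and 1668 without asp1-D333A replicate 3. The cause of these differences was not tested. Levels per length of 9 factors changed by more than the spread between libraries with coding length in place of exon length, rhn1 being the exception, which follows from the lengths.

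Replicate numbers 1 to 3 are shared by the mutants only, and WT carries 4 to 6, so a replicate block could be fitted only between the mutants. Deviations of same-numbered libraries correlated at 0.15, 0.06 and -0.13, so the numbers were not treated as pairs. With the replicate block, 3855 genes and 8 factors were called, and pcf11 lost its call (-0.18, adjusted p 0.12 by edgeR). The lowest count of the 10 was 195, for ssu72, and the part of counting error in its spread was not tested.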

Other observations

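Genes next to the factors on the chromosome were looked at as well, taking the nearest listed feature on either side that does not overlap. Only some are named here, picked after their values were seen. Of all genes, 6.73% were called higher in the aps1 deletion against WT and 30.8% lower in asp1-D333A against WT. Downstream of seb1 and facing it, byr4, a regulator of septum formation, had 96.3 CPM in the aps1 deletion, 51.6 CPM in asp1-D333A and 67.6 CPM in WT on average. It rose in the aps1 deletion (log2 fold change 0.51, adjusted p 0.0014 by edgeR) and fell in asp1-D333A (-0.39, adjusted p 0.0015 by edgeR), the directions of seb1. The gene agn2, downstream of pla1, was called in the same directions, at 0.26 (adjusted p 0.032 by edgeR) and -0.51 (adjusted p 6.9e-05 by edgeR). Downstream of ctf1 on its strand, dad4, a kinetochore gene, moved against ctf1, at -0.45 in the aps1 deletion (adjusted p 0.024 by edgeR) and 0.71 in asp1-D333A (adjusted p 0.00017 by edgeR). The gene on the strand of ssu72 that follows it, spa2, fell in asp1-D333A (-0.73, adjusted p 5.1e-07 by edgeR), where ssu72 was at 0.04. The neighbours of swd22 on either side, SPAC824.03c and vps16, were at -0.045 and 0.12 in asp1-D333A and were not called there.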
